A study of Mus musculus with 32 samples.

Results

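The 96 genes described here encode proteins of the mitochondrial respiratory chain and of ATP synthase. They were picked by symbol from the 21793 protein-coding genes of a count table of 51912 genes. The rule uses no measured values, but it was chosen with earlier results of these data known. Of these genes, 13 lie on the mitochondrial genome (symbols that start with mt-) and 83 on nuclear chromosomes (the families Nduf, Sdh, Uqcr, Cox4 to Cox8 and Atp5). By complex, the mitochondrial genome holds 7 genes of complex I, 1 of complex III, 3 of complex IV and 2 of complex V, and the nuclear genome holds 36, 8, 18 and 17, beside all 4 of complex II. The naming rule leaves out Ndufab1, an acyl carrier protein that is also a subunit of complex I. It takes in Cox7a2l, which helps to join complexes into supercomplexes, and it counts Ndufa4 with complex I by its name, although this protein is now placed in complex IV.

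RNA came from nuclei of the outer muscle layer with the myenteric plexus, a nerve network of the gut wall, taken from the colon or the small intestine (SI) of C57BL/6 mice kept specific pathogen-free at the University of Bern or the Francis Crick Institute. Mice of all 8 groups had received AAV9-CaMKII-EGFPKASH intravenously 5 weeks earlier, a viral vector whose CaMKII promoter drives an EGFP that is held at the nuclear envelope. Sorting gave EGFP+ nuclei, labelled neuronal (ColPos and SiPos), and EGFP- nuclei, labelled non-neuronal (ColNeg and SiNeg), so "neuronal" means nuclei with vector and CaMKII promoter activity, and neurons without these can be among the EGFP- nuclei. Each group had 4 libraries, and the labels do not say that these came from separate mice, so p-values measure the spread between libraries, which may be technical.

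The respiratory chain passes electrons from NADH (complex I) and succinate (complex II) through complex III to oxygen (complex IV), and complex V uses the resulting proton gradient to make ATP. Complexes I, III, IV and V are built from subunits of both genomes, whereas complex II is encoded by the nucleus alone. Mitochondrial genes are transcribed inside mitochondria as long precursors that are cut into single RNAs and stay in the organelle, whereas transcripts of the nuclear set are made inside nuclei such as those sorted here.

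Totals ranged from 2394481 to 8350833 counts per library (median 4364008), and the 95% Wilson interval for the share of counts in the 13 mitochondrial genes extends at most 0.019 percentage points to either side, for counting error only. All 10 neuron markers were higher in EGFP+ nuclei, and all 5 glial, 7 smooth muscle, 7 epithelial, 5 macrophage, 4 endothelial and 4 fibroblast markers were lower. Of 4 markers of interstitial cells of Cajal, which pace gut muscle, 1 was higher and 3 were lower. Of all tested genes 21.9% were higher and 21.6% lower. The smooth muscle markers still summed to 372 to 1090 CPM (a gene's share of all counts of its library, scaled to a total of 1e6) in EGFP+ libraries. Markers of interstitial cells of Cajal summed to 268 to 2252 CPM in EGFP+ libraries and 158 to 1033 in EGFP- libraries. Bern libraries had counts for 15640 to 22410 genes and Crick libraries for 25680 to 34990, with no overlap. Libraries Crick_SiNeg 2 and Crick_SiPos 2 stood apart from the rest of their groups in the genes described here, and results that rest on them are given with and without them. In bulk RNA, fewer cells of a type and less RNA per cell cannot be told apart.

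The mitochondrially encoded set varied over a far wider range than the nuclear encoded set. In neuronal nuclei of the colon, the 13 mitochondrial genes summed to 1303, 999.6, 1126 and 1431 CPM in the 4 Bern libraries and to 916, 769, 777 and 1235 CPM in the 4 Crick libraries. In neuronal nuclei of the SI they summed to 5038, 6859, 9347 and 15340 CPM in Bern and 5426, 16010, 3598 and 2690 CPM in Crick. Every neuronal SI library thus lay above every neuronal colon library, in both facilities. Non-neuronal colon nuclei held 7484, 8240, 10970 and 12490 CPM in Bern and 9806, 4976, 6466 and 6437 CPM in Crick. Non-neuronal SI nuclei held 24410, 30600, 30690 and 19630 CPM in Bern and 7256, 26240, 9108 and 4365 CPM in Crick. Among non-neuronal libraries the 2 segments did not overlap in Bern but overlapped in Crick, where library 2 alone supplied the high SI value.

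The 83 nuclear genes together gave 713 to 2406 CPM, less than the mitochondrial sum in every group apart from neuronal colon. Their group means were 1533 ± 28.5 CPM (SD, n = 4) in Bern_ColPos and 1211 ± 96.3 in Bern_SiPos. In Bern_ColNeg the mean was 1863 ± 370 and in Bern_SiNeg 1764 ± 341. The Crick means were 1266 ± 136 in ColPos, 1141 ± 289 in SiPos, 1609 ± 127 in ColNeg and 1269 ± 323 in SiNeg. The highest library exceeded the lowest 39.9-fold for the mitochondrial sum and 3.38-fold for the nuclear sum, or 2.18-fold for the nuclear sum without Crick_SiNeg 2 and Crick_SiPos 2. These 2 libraries had the lowest nuclear sums of all 32, 818 and 713 CPM, and the highest mitochondrial sums of their groups.

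The ratio of the mitochondrial to the nuclear sum was lowest in neuronal colon libraries, at 0.832, 0.661, 0.728 and 0.95 in Bern and 0.819, 0.62, 0.618 and 0.852 in Crick, so that the nuclear set outweighed the mitochondrial set in all 8. Bern_SiNeg was highest by group mean, at 15 ± 2.24 (SD, n = 4). Between these lay Crick_ColNeg (3.4 to 6.23), Bern_ColNeg (3.42 to 7.47), Bern_SiPos (3.98 to 13.9), Crick_SiPos (2.16 to 22.4) and Crick_SiNeg (2.9 to 32.1), whose ranges overlap. Libraries spanned 51.9-fold in this ratio, and 28.9-fold without Crick_SiNeg 2 and Crick_SiPos 2.

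**Figure D1:**
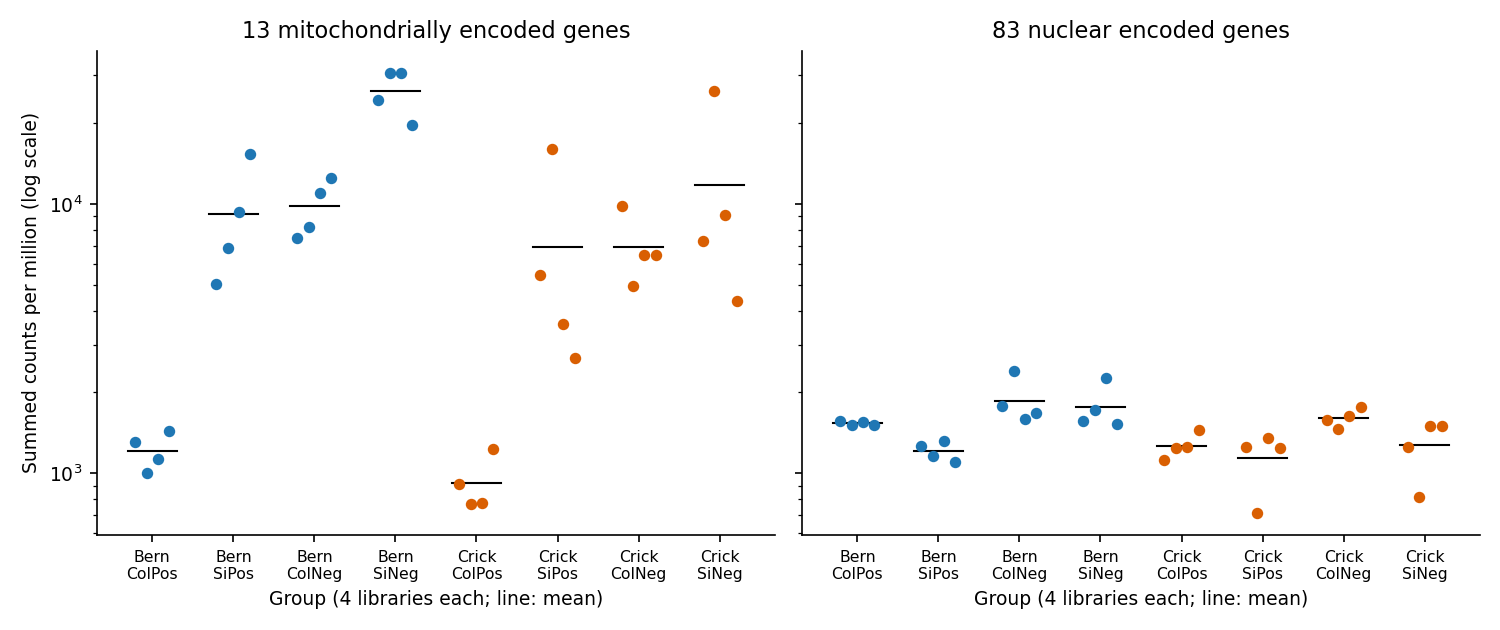
Summed CPM (log scale) of the 13 mitochondrially encoded and 83 nuclear encoded genes in each of the 32 libraries, by group; points are libraries, lines are group means, blue is Bern and orange is Crick. The mitochondrial sum runs from 769 CPM in neuronal colon nuclei to 30690 CPM in non-neuronal SI nuclei, while the nuclear sum stays between 713 and 2406 CPM.

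Per kilobase of transcript and averaged over all 32 libraries, mt-Co1 (1686 CPM per kb), the catalytic subunit of complex IV, and mt-Cytb (1646), the only complex III subunit of the mitochondrial genome, stood highest. They were followed by the complex I subunits mt-Nd4 (1109), mt-Nd1 (839) and mt-Nd5 (574). A low value belonged to mt-Nd6 (189), the only one of the 13 encoded on the other strand. The places of mt-Nd3 (57.3), mt-Atp6 (118), which forms part of the proton channel of complex V, mt-Co3 (179), mt-Co2 (404) and mt-Nd4l (466) rest on how reads were split with near-identical copies described in the next paragraphs. Summed with the copy they had 67.8 (mt-Nd3), 818 (mt-Atp6), 318 (mt-Co3), 642 (mt-Co2) and 499 CPM per kb (mt-Nd4l). Of the nuclear members the highest per kilobase were Cox6a1 (33.1), a small subunit of complex IV, Atp5b (29.8), the catalytic beta subunit of ATP synthase, and Cox7c (28.9).

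Most mitochondrial genes lie end to end on 1 strand, in this order on chrM of GRCm38: mt-Nd1 at chrM:2751-3707, mt-Nd2 at chrM:3914-4951, mt-Co1 at chrM:5328-6872, mt-Co2 at chrM:7013-7696, mt-Atp8 at chrM:7766-7969, mt-Atp6 at chrM:7927-8607, mt-Co3 at chrM:8607-9390, mt-Nd3 at chrM:9459-9806, mt-Nd4l at chrM:9877-10173, mt-Nd4 at chrM:10167-11544, mt-Nd5 at chrM:11742-13565, mt-Nd6 at chrM:13552-14070 and mt-Cytb at chrM:14145-15288. The ends of mt-Atp8 and mt-Atp6, of mt-Nd4l and mt-Nd4, and of mt-Nd5 and mt-Nd6, which face each other, overlap. Reads within the overlaps of mt-Atp8 with mt-Atp6 and of mt-Nd4l with mt-Nd4, which share a strand, cannot be told apart by strand. Those of mt-Nd5 and mt-Nd6 can be told apart only where strand was used, which the labels do not state.

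The values of 5 mitochondrial genes are uncertain, because a stretch of the mitochondrial genome has a near-identical copy on chromosome 1 of the reference, between which the authors' counting could split reads. Of the 75-base windows of the transcript, the length of the reads, 99.5% of mt-Co2, 99.5% of mt-Atp6, 99.9% of mt-Co3, 97.8% of mt-Nd3 and 98.7% of mt-Nd4l occur letter for letter in the pseudogenes Gm28661, Gm10925, Gm28437, Gm28438 and Gm10222 of this copy. For mt-Nd4 the share was 61.5% and for mt-Co1 27.5%, and it was 0% for mt-Nd1, mt-Nd2, mt-Atp8, mt-Nd5, mt-Nd6 and mt-Cytb. Counted over all other genes it was 39.8% for mt-Co1, 5.7% for mt-Nd2 and 1.7% for mt-Nd5. Gm13340 on chromosome 2 matches all of mt-Co1 at 97.61% identity, so counts of mt-Co1 are uncertain in part. Below, a full copy means a chromosome 1 copy of mt-Co2, mt-Atp6, mt-Co3, mt-Nd3 or mt-Nd4l. Stretches of 120 bases are printed here for 3 genes, since they show which reads can and cannot be told from a nuclear copy (transcripts of GENCODE M21, GRCm38, each 5′ to 3′ in the gene's direction; capitals mark the bases at which the pair differs).
The stretches of mt-Co2 (chrM:7293-7412, + strand) and of its copy (chr1:24615166-24615285, - strand) have 0 differences.
mt-Co2: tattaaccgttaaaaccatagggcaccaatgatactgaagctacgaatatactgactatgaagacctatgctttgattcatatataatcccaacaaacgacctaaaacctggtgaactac
Gm28661: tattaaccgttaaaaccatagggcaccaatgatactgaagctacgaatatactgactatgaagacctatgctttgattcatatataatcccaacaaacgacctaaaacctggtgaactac
Those of mt-Nd3 (chrM:9459-9578, + strand) and of its copy (chr1:24613000-24613119, - strand) have 1, T3C, counted from the first base of mt-Nd3.
mt-Nd3: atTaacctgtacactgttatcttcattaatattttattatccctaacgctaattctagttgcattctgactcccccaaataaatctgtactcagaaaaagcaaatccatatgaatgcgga
Gm28438: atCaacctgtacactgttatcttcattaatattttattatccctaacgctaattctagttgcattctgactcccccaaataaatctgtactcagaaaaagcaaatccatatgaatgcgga
Those of mt-Cytb (chrM:14586-14705, + strand) and of its closest relative among annotated transcripts (chr4:80004430-80004549, + strand) have 9.
mt-Cytb: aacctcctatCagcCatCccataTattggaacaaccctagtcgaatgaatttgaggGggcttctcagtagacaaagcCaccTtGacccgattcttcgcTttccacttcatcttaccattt
Gm11410: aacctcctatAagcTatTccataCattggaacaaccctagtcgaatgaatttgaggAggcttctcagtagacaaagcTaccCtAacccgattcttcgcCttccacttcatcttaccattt

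For the 5 genes with a full copy, the division of counts between gene and copy varied between libraries over nearly the whole range. For mt-Co1 against Gm29216 the share given to the gene ran from 74.1% to 100%. The share given to mt-Co2 rather than Gm28661 had a median of 27.6% in the 16 Bern libraries and 83.5% in the 16 Crick libraries. For mt-Co3 against Gm28437 the medians were 0.0693% and 74.4%, and for mt-Atp6 against Gm10925 they were 0% and 19.6%. The table listed mt-Atp6 at 0 in 15 of 32 libraries, mt-Co3 in 10, mt-Nd3 in 9, and mt-Co2 and mt-Nd4l in 5 each. The gene mt-Nd4, although it shares most of its windows with Gm28439, received all counts of the pair in all 32 libraries. Pairwise sums of gene and copy do not depend on this division and are given beside the single genes.

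**Figure D2:**
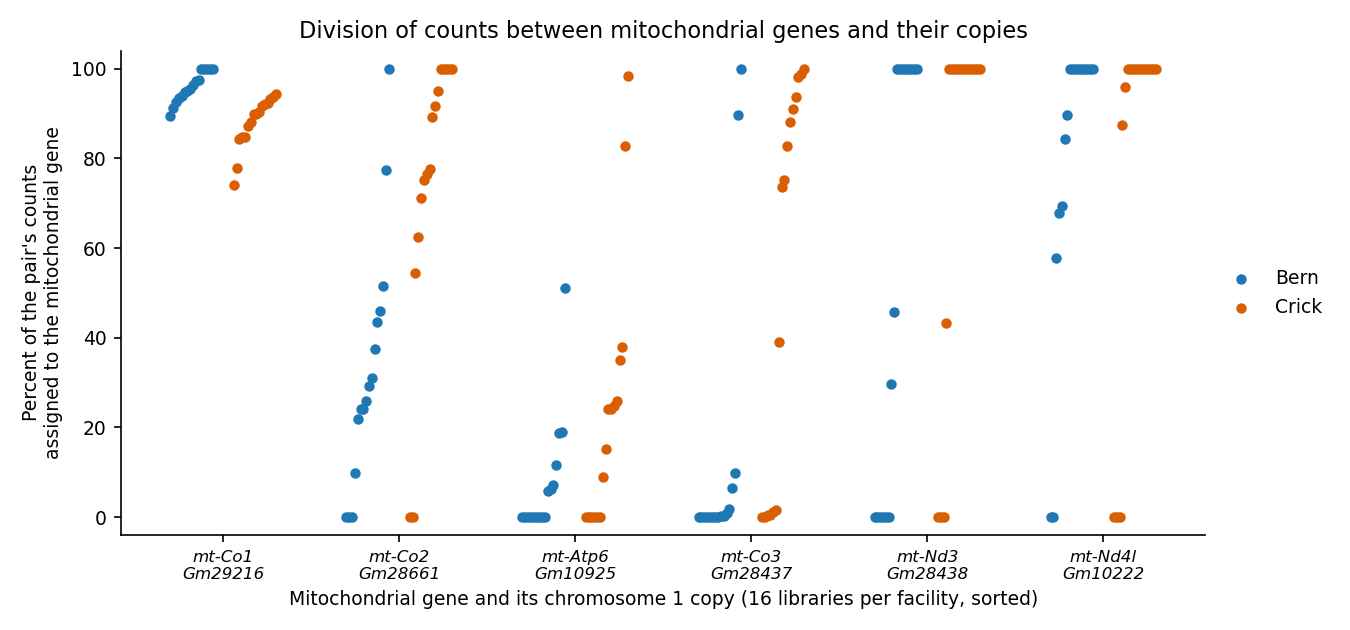
Percent of the counts of each gene and its chromosome 1 copy that were assigned to the mitochondrial gene; each point is 1 library, sorted within facility, 16 from Bern (blue) and 16 from Crick (orange). For mt-Co2 and mt-Co3 the medians are 27.6% and 0.0693% in Bern and 83.5% and 74.4% in Crick.

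In the comparison of sorts, which asks how EGFP+ nuclei differ from EGFP- nuclei, 12 of 13 mitochondrial genes fell (21.6% of all tested genes fell), and the exception, mt-Atp6, stood at -2.20 ± 0.98 (adjusted p = 0.0677, edgeR quasi-likelihood test with Benjamini-Hochberg adjustment, as for all adjusted p given here without another tool). Counts of mt-Nd1, a core subunit of complex I with no shared window, were 92.5, 109, 116 and 108 CPM in Bern_ColPos and 799.7, 870, 1139 and 1520 CPM in Bern_ColNeg. In the SI of the same facility they were 628, 588, 859 and 1432 CPM in SiPos and 1888, 2175, 2723 and 2128 CPM in SiNeg. These 2 pairs of groups do not overlap. In Crick the values were 84.2, 60.9, 63.6 and 101 CPM in ColPos and 719, 394, 533 and 572 CPM in ColNeg, also without overlap. For Crick SI they were 479, 1171, 239 and 213 CPM in SiPos and 647, 2182, 662 and 410 CPM in SiNeg, and here the groups overlap, although each SiPos library lay below the SiNeg library of its number in all 4 pairs. Over all strata mt-Nd1 fell by 2.17 ± 0.26 on the log2 scale (adjusted p = 8.04e-09).

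The fall had a similar size in the genes without a full copy on chromosome 1. These 8 genes had log2 differences from -2.23 to -1.98, with a median of -2.13. They were the complex I genes mt-Nd1, mt-Nd2 (-2.15), mt-Nd4, mt-Nd5 (-2.12) and mt-Nd6 (-2.01), mt-Cytb of complex III (-2.02 ± 0.26), mt-Co1 of complex IV (-1.98) and mt-Atp8 of complex V (-2.23). The 5 genes with a full copy ran from -4.09 to -2.03, and their sums with the copies from -2.29 to -1.64, at which all 13 passed the test. The value of mt-Co3 alone, -4.09 ± 1.07 (adjusted p = 0.0018), rested on single libraries: it was -2.16 (adjusted p = 0.537) without Bern_ColNeg 1 and -1.14 (adjusted p = 1) without Bern_SiNeg 4. None of the 13 genes, and none of the nuclear members, was free of overlap in all 4 strata (2.37% of all tested genes were lower and 3.19% higher without overlap). Within Bern 11 fell and within Crick 10 (38.4% and 27.5% of all tested genes passed in either direction), with medians of -2.35 and -1.94. In Crick the libraries of 1 number and segment deviated together from their group means in both sorts, and with these numbers as a block in a fit of the 16 Crick libraries alone all 13 fell (27.9% of all tested genes fell), mt-Atp6 among them (-3.94, adjusted p = 0.0398), with a median of -1.95, against 11 without the block (25.7%) and 11 of 13 in the 16 Bern libraries alone (14.6%).

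Of 77 nuclear encoded members tested, 11 fell and 0 rose, against 21.6% and 21.9% of all tested genes (43.5% in either direction), and 22 had an unadjusted p under 0.05 (49.7% of all tested genes). Their median log2 difference was -0.47, with 60 of 77 below 0, beside -0.01 over all genes tested. By complex the genes that fell were 2 of 36 in complex I, 0 of 4 in complex II, 1 of 8 in complex III, 4 of 12 in complex IV and 4 of 17 in complex V. This count depended on scaling and tool: it was 28 with DESeq2 (27 lower, 1 higher), 21 with RLE size factors and 18 with library sizes that leave out mitochondrial genes. Shares of all genes called in these runs are not given, so these counts cannot be set against other genes. Within Bern 7 fell and within Crick 0 (38.4% and 27.5% of all tested genes passed in either direction), from the spread shared by all 32 libraries. From the 16 libraries of 1 facility alone, 4 of 75 fell in Bern (27.0% of all tested genes passed in either direction, 14.6% as lower) and 27 of 77 in Crick (46.9%, 25.7% as lower). With the Crick numbers as a block, 33 of 77 fell and 2 rose, Ndufa10 and Ndufs1 (52.1% of all tested genes passed, 27.9% as lower and 24.2% as higher).

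**Figure D3:**
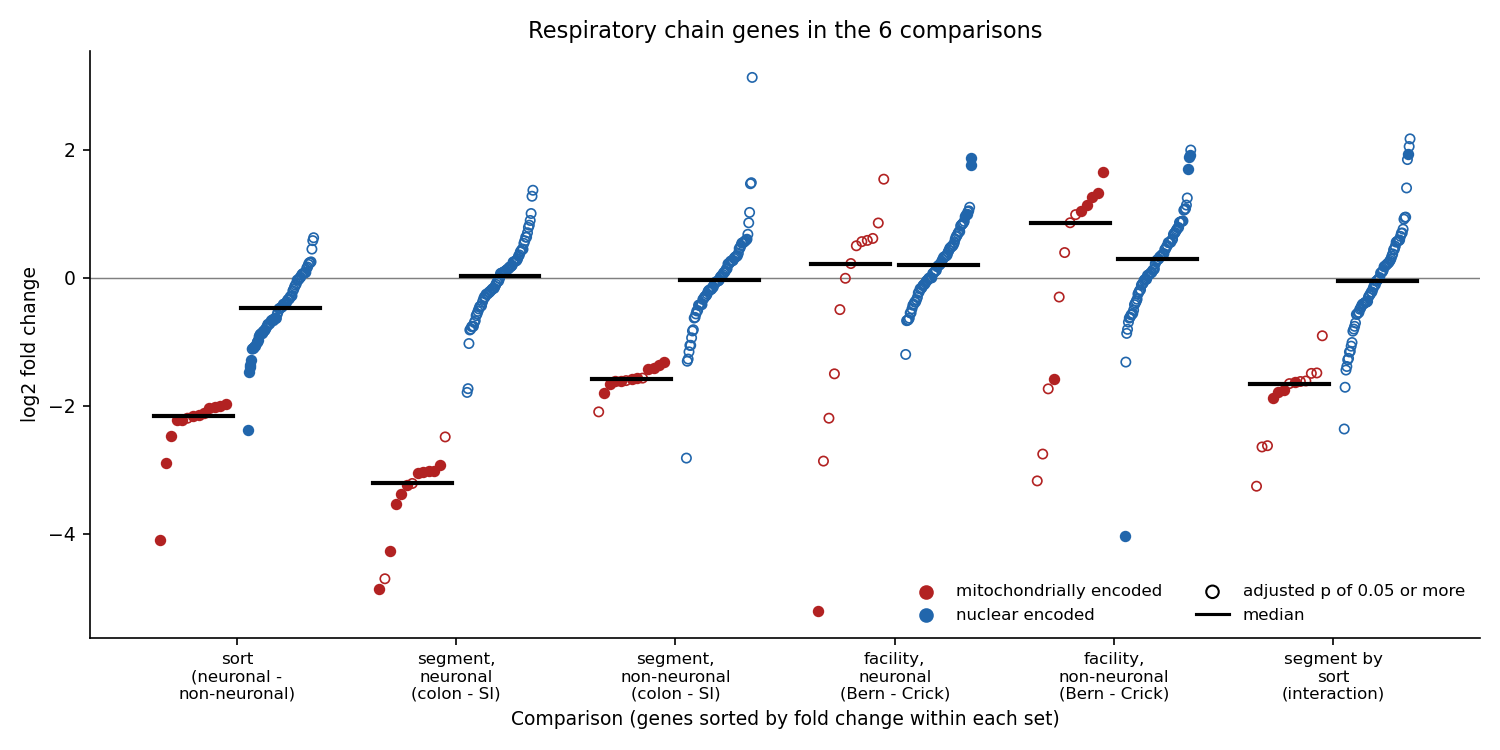
Log2 fold changes of the tested mitochondrially encoded (red) and nuclear encoded (blue) genes in the 6 comparisons, sorted within each set; filled points passed the test at an adjusted p under 0.05, open points did not, and black lines are medians. The red points lie below 0 in the sort, segment and segment by sort comparisons, with medians of -2.17, -3.22, -1.58 and -1.66, while the blue medians lie between -0.47 and 0.29; the lowest blue point, Ndufa1 between facilities, depends on a prior count.

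Among the nuclear genes that fell were both structural and catalytic subunits. Atp5b was at 100.2 CPM on average over EGFP+ libraries and 153 CPM over EGFP- libraries and fell by 0.65 ± 0.15 (adjusted p = 3.89e-04). In Bern_ColPos it had 116, 116, 54.9 and 83.6 CPM and in Bern_ColNeg 188, 210.2, 156 and 124 CPM, without overlap. In Crick the values were 89, 99, 100 and 122 CPM in ColPos and 166, 132, 189.7 and 206 CPM in ColNeg, likewise without overlap, whereas the SI groups of both facilities overlapped. Complex IV genes that fell were Cox5b (-1.48 ± 0.37, adjusted p = 0.00129), Cox7c (-0.98 ± 0.24, adjusted p = 8.93e-04), Cox6a1 (-1.01 ± 0.35, adjusted p = 0.0187) and Cox6b2 (-2.38 ± 0.67, adjusted p = 0.00347), the isoform of Cox6b first described in testis. From complex V, Atp5j fell by 1.40 ± 0.36 (adjusted p = 0.0015), and this difference was -2.33 ± 0.52 within Bern but -0.47 ± 0.50 (adjusted p = 0.57) within Crick, or -0.50 (adjusted p = 0.0269) in the Crick libraries alone with the numbers as a block. Atp5k and Atp5g2, the latter a gene for the c subunit of the rotor, Ndufs7 and Ndufb9 of complex I and Uqcrh of complex III completed the 11, with falls of 0.83 (Uqcrh) to 1.37 (Atp5k). Counts of Cox7c (25.0% of 75-base windows also in another gene), Ndufb9 (20.3%), Cox5b (17.2%), Atp5j (14.9%) and Atp5g2 (8.0%) are uncertain too, because reads of shared windows could be split between genes. For Atp5j the near-identical sequence found lies in Gabpa, a gene among the regulators given below, and not in a pseudogene. The call for Atp5g2 (adjusted p = 0.045) was lost in 17 of 32 repeats that each left out 1 library, at the extreme without Bern_ColNeg 1 (-0.70, adjusted p = 0.192).

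Of the subunits fixed as core members, most showed no difference that passed the test. Ndufs1, the largest iron-sulfur subunit of complex I, had 52.7 ± 12.9 CPM (SD, n = 4) in Bern_ColPos and 57.8 ± 15.7 in Bern_ColNeg, and 102 ± 11.9 and 74.2 ± 5.13 in the same groups of Crick. Its log2 difference between sorts was 0.07 ± 0.18 (adjusted p = 0.82). Ndufv1, which binds NADH, stood at 0.25 ± 0.28 (adjusted p = 0.51), and Uqcrc1, a core protein of complex III, at -0.02 ± 0.25 (adjusted p = 0.98). Sdha, the flavoprotein of complex II, stood at -0.48 ± 0.20 (adjusted p = 0.0516), Atp5a1, the alpha subunit of ATP synthase, at -0.37 ± 0.22 (adjusted p = 0.172) and Cox4i1 of complex IV at -0.79 ± 0.37 (adjusted p = 0.0793). The Rieske iron-sulfur protein gene Uqcrfs1 stood at -1.07 ± 0.45 (adjusted p = 0.0524). For Cox5a (-0.65 ± 0.52, adjusted p = 0.341) the standard error was too wide to show a difference of the size seen in Atp5b. Sdhb stood at 0.00 ± 0.93 (adjusted p = 1), where the standard error is unstable because it is computed from a log2 difference near 0. Whether Sdhb differed by as much as Atp5b cannot be told from it. In the Crick libraries alone with the numbers as a block, Cox4i1 (-0.85, adjusted p = 0.000923), Atp5a1 (-0.58, adjusted p = 0.00415), Uqcrfs1 (-0.90, adjusted p = 0.00785) and Uqcrc1 (-0.48, adjusted p = 0.0233) fell, and Ndufs1 rose (0.31, adjusted p = 0.0458).

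Between segments in neuronal nuclei, the comparison asks how EGFP+ nuclei of colon and SI differ. Here 10 of 13 mitochondrial genes were lower in colon (3.54% of all tested genes were lower). All 10 were free of overlap in both facilities (1.06% of all tested genes were lower without overlap). The 4 markers of interstitial cells of Cajal were lower in colon too, as given below. Counts of mt-Cytb were 205, 177, 211 and 338 CPM in Bern colon and 1285, 1576, 2566 and 4008 CPM in Bern SI. In Crick they were 162, 157, 142 and 246 CPM in colon and 787, 2708, 777 and 589.8 CPM in SI. The lowest SI library stood well above the highest colon library in each facility. The fall of mt-Cytb was 3.58 ± 0.54 within Bern (adjusted p = 5.74e-04) and 3.20 ± 0.53 within Crick (adjusted p = 0.00162).

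The catalytic complex IV subunit mt-Co1 had 675, 334, 369 and 422 CPM in Bern colon and 1763, 1515, 2151 and 3208 CPM in Bern SI. Its Crick values were 328, 297, 248 and 456 CPM in colon and 2517, 5564, 1345 and 846 CPM in SI. Again neither pair overlapped, and mt-Co1 fell by 2.93 ± 0.37 over both facilities (adjusted p = 1.71e-05). The 8 genes without a full copy ran from -3.53 (mt-Nd4) to -2.93 (mt-Co1). The 3 that did not pass were mt-Nd3 (-3.22 ± 0.99, adjusted p = 0.0591), mt-Co3 (-4.71 ± 1.53, adjusted p = 0.0754) and mt-Atp6 (-2.49 ± 1.45, adjusted p = 0.377), all with a full copy, and with counts summed over gene and copy all 13 passed, from -3.53 to -2.66. Without Crick_SiPos 2 the median of the 13 was -2.48 in place of -3.22, and within Bern 9 and within Crick 8 passed (4.17% and 0.913% of all tested genes passed in either direction).

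In the same comparison 0 of 74 tested nuclear genes passed edgeR's test (5.51% of all tested genes passed, 1.97% as higher). An unadjusted p under 0.05 was seen for 4 (18.7% of all tested genes), and DESeq2 called 3 (share of all genes not given). The median of the 74 was 0.03. Among abundant members, Atp5b stood at -0.25 ± 0.19, Sdha at 0.26 ± 0.21, Ndufs1 at -0.17 ± 0.21 and Cox6c, the most abundant nuclear subunit of complex IV by CPM, at 0.18 ± 0.33. Intervals of 2 standard errors around these values do not reach the differences of the 8 mitochondrial genes. Closest to the threshold were Cox7a2l (1.28 ± 0.39, adjusted p = 0.056), Ndufs3 (1.01 ± 0.34, adjusted p = 0.0931) and Ndufa8 (-1.79 ± 0.63, adjusted p = 0.108), named here after their values were seen. Of the nuclear members 1, Ndufa8, was lower in colon without overlap and 0 were higher (1.27% of all tested genes were higher without overlap). Summed nuclear members overlapped between the segments in Crick (colon 1119 to 1449 CPM, SI 713 to 1348) but were higher in colon in Bern (colon 1506 to 1566, SI 1103 to 1314). The mitochondrial sum of the same Bern libraries was lower in colon.

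Other RNAs moved with this segment difference. The 4 marker genes for interstitial cells of Cajal, which pace gut muscle, were all lower in colon and summed to 346 to 504 CPM in Bern_ColPos against 702 to 2252 in Bern_SiPos, and to 268 to 405 against 1155 to 1848 in Crick. Smooth muscle markers summed to 422 to 1090 CPM in Bern_ColPos, 372 to 1082 in Bern_SiPos, 373 to 487 in Crick_ColPos and 397 to 1005 in Crick_SiPos. Of these 7 markers 2 were lower in colon and 0 higher (3.54% of all tested genes were lower and 1.97% higher). Both mitochondrial ribosomal RNAs, which share the organelle but encode no protein, fell too, mt-Rnr1 by 3.33 ± 0.40 and mt-Rnr2 by 3.23 ± 0.36. Their part in the result was not tested.

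Between segments in non-neuronal nuclei, 10 of 13 mitochondrial genes were lower in colon (3.54% of all tested genes were lower), with log2 differences from -2.10 to -1.31, and the groups overlapped for all 13 and for all nuclear members (0.433% of all tested genes were lower and 2.09% higher without overlap). Counts of mt-Nd4 were 1128, 1357, 1844 and 1661 CPM in Bern colon and 4982, 7572, 6399 and 3621 CPM in Bern SI, without overlap. In Crick they were 1104, 626, 873 and 748 CPM in colon and 882, 3214, 1216 and 493 CPM in SI, where only library 2 exceeded the colon range by far. The log2 difference was -2.34 ± 0.49 within Bern (adjusted p = 0.00742) and -1.25 ± 0.48 within Crick (adjusted p = 0.548). Within Bern 8 genes passed (10.1% of all tested genes passed in either direction) and within Crick 0 (0.256%), where the median was -1.21. A test of the difference between facilities was not run. Without Crick_SiNeg 2 the median was -0.97 in place of -1.58 and 8 genes passed, and without 6 libraries in doubt only mt-Nd4 passed and the median was -0.81.

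Of 77 nuclear genes 0 passed in this comparison by edgeR (9.32% of all tested genes passed, 5.79% as higher). An unadjusted p under 0.05 was seen for 5 (24.2% of all tested genes), and DESeq2 called 4 (share of all genes not given). The median of the 77 was -0.03. Epithelial markers moved with the segment: they summed to 1672 to 12340 CPM in Bern_ColNeg and 2462 to 9130 in Crick_ColNeg against 384 to 816 in Bern_SiNeg and 156 to 1052 in Crick_SiNeg, with 4 of 7 tested higher and 1 lower in colon. Of 10 neuron markers 4, of 4 endothelial markers 3 and of 5 macrophage markers 2 were higher in colon, and 3 of 4 fibroblast markers were lower. Cytosolic ribosomal protein genes, whose mature RNA also lies outside the nucleus, had 7 of 77 higher in colon (5.79% of all tested genes were higher), 0 lower and a median of 0.74. Their part in the result was not tested.

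The difference between the 2 segment contrasts was tested itself. All 13 mitochondrial genes had a larger fall in neuronal than in non-neuronal nuclei, by 0.91 to 3.26 on the log2 scale, and 4 passed (5.39% of all tested genes were lower by this test): mt-Nd1 (-1.89 ± 0.50, adjusted p = 0.0185), mt-Cytb (-1.79 ± 0.50, adjusted p = 0.025), mt-Co1 (-1.63 ± 0.50, adjusted p = 0.0403) and mt-Nd4 (-1.75 ± 0.54, adjusted p = 0.041). These calls rested on few libraries. Without Crick_SiPos 2 none of the 13 passed, with mt-Nd1 at -1.36 (adjusted p = 0.0585), and without Crick_SiNeg 2 there were 10, while leaving out both gave 7. Of the 13, 10 had an unadjusted p under 0.05 (19.7% of all tested genes), and 6.48% of all tested genes passed in either direction. Within Bern and within Crick 0 passed each (8.18% and 0.153% of all tested genes passed in either direction). The median of the 13 was -1.66, and it was -1.07 without Crick_SiPos 2 and -2.33 without Crick_SiNeg 2.

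One nuclear gene passed this test in the opposite direction. Ndufs3, a core subunit of complex I, had 109, 43, 74.6 and 21.4 CPM in neuronal colon and 14.6, 9.38, 21.7 and 8.12 CPM in neuronal SI of Bern. In non-neuronal nuclei of Bern it had 14.4, 5.2, 26.9 and 28 CPM in colon and 107, 11.4, 73.2 and 13.3 CPM in SI. The neuronal groups of Bern overlapped by 1 library and the non-neuronal groups overlapped widely. In Crick all 16 libraries lay between 14.9 and 40.7 CPM, and the segment by sort difference was 3.82 ± 0.85 within Bern and 0.04 ± 0.82 within Crick. Over both facilities it was 1.93 ± 0.59 (adjusted p = 0.0391; 1.09% of all tested genes were higher), and it was lost in 19 of the 32 repeats that each left out 1 library (without Bern_SiNeg 1 it was 1.60, adjusted p = 0.0735). Of its 75-base windows 28.2% also occur in another gene, and its copy Gm12251 matches 75.7% of the transcript, so its counts are uncertain too.

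Between facilities the mitochondrial genes did not move as 1 set. In non-neuronal nuclei, 5 of 13 were higher in Bern (4.35% of all tested genes were higher) and 1 was lower (4.94% of all tested genes were lower). Those higher were 4 complex I genes, mt-Nd4l (1.65 ± 0.38, adjusted p = 0.0076), mt-Nd4 (1.32 ± 0.34, adjusted p = 0.016), mt-Nd5 (1.27 ± 0.35, adjusted p = 0.0228) and mt-Nd2 (1.04 ± 0.33, adjusted p = 0.0492), and mt-Cytb (1.14 ± 0.32, adjusted p = 0.0279). Calls for mt-Cytb and mt-Nd2 were lost in 4 and 12 of the 16 repeats that each left out 1 library. The library values of mt-Nd4 given above do not overlap between the facilities in either segment, the 1 member for which this held (1.13% of all tested genes were higher and 1.62% lower without overlap). Yet mt-Nd6, whose gene lies on the other strand between mt-Nd5 and mt-Cytb, stood at -0.30 ± 0.40 (adjusted p = 0.706), and mt-Co1 at 0.40 ± 0.32 (adjusted p = 0.491). In either direction 9.29% of all tested genes passed, and an unadjusted p under 0.05 was seen for 10 of 13 mitochondrial and 8 of 77 nuclear genes (24.2% of all tested genes). Without Crick_SiNeg 2 the median of the 13 was 1.39 in place of 0.86, and 8 passed, all higher in Bern. Of 7 smooth muscle markers 2 were higher in Bern and 0 lower, with a median of 0.66, and their part in the result was not tested. The 4 that passed among SI groups alone (4.44% of all tested genes passed in either direction) included mt-Nd4 (1.87 ± 0.49, adjusted p = 0.0367), and among colon groups alone 0 passed (1.07%), with mt-Nd4 at 0.78 ± 0.47.

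Both mitochondrial genes that passed the test as lower in Bern, mt-Co2 and mt-Co3, have a full copy on chromosome 1. In non-neuronal nuclei mt-Co2 had 72.2, 78.8, 112 and 228 CPM in Bern colon and 599.5, 269, 266 and 323 CPM in Crick colon, without overlap, and it fell by 1.59 ± 0.43 over both segments (adjusted p = 0.0229). Summed with Gm28661 the difference was -0.25 ± 0.35 (adjusted p = 0.728), and without Crick_SiNeg 2 that of the gene alone was -0.96 (adjusted p = 0.0945). A difference that stayed after summing was that of mt-Nd3, at -2.76 ± 0.89 alone (adjusted p = 0.0533) and -2.39 ± 0.49 with its copy (adjusted p = 0.00353). For mt-Co3 the summed value was -1.16 ± 0.35 (adjusted p = 0.0383), and for mt-Atp6 it was 0.60 ± 0.33 (adjusted p = 0.278), with the sign opposite to that of the gene alone (-1.74).

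In neuronal nuclei 1 of 13 mitochondrial genes passed (7.72% of all tested genes passed in either direction, 2.76% as lower), mt-Co3, at -5.21 ± 1.54 (adjusted p = 0.0388). Its values were 0, 0, 0.513 and 0.279 CPM in Bern colon and 49.5, 0.219, 0 and 0 CPM in Crick colon, and 0.251, 0, 14.6 and 15 CPM in Bern SI and 1.36, 609, 1.88 and 2.2 CPM in Crick SI. The call rested on single high libraries: without Crick_SiPos 2 the difference was -1.73 (adjusted p = 0.431), without Crick_ColPos 1 it was -1.71 (adjusted p = 0.83), and summed with Gm28437 it was -1.13 ± 0.38 (adjusted p = 0.0693). With sums, mt-Nd3 was the 1 gene to pass, at -2.13 ± 0.49 (adjusted p = 0.00935). The 8 genes without a full copy ran from -0.50 (mt-Nd6) to 0.86 (mt-Nd5). An unadjusted p under 0.05 was seen for 4 of 13 mitochondrial and 9 of 74 nuclear genes (23.4% of all tested genes), and no member was free of overlap (1.35% of all tested genes were higher and 0.924% lower without overlap). Without Crick_SiPos 2 there were 5 mitochondrial genes that passed, all higher in Bern, and the median was 0.81 in place of 0.22. Among colon groups alone and among SI groups alone 0 passed (3.09% and 0.683% of all tested genes passed in either direction).

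**Figure D4:**
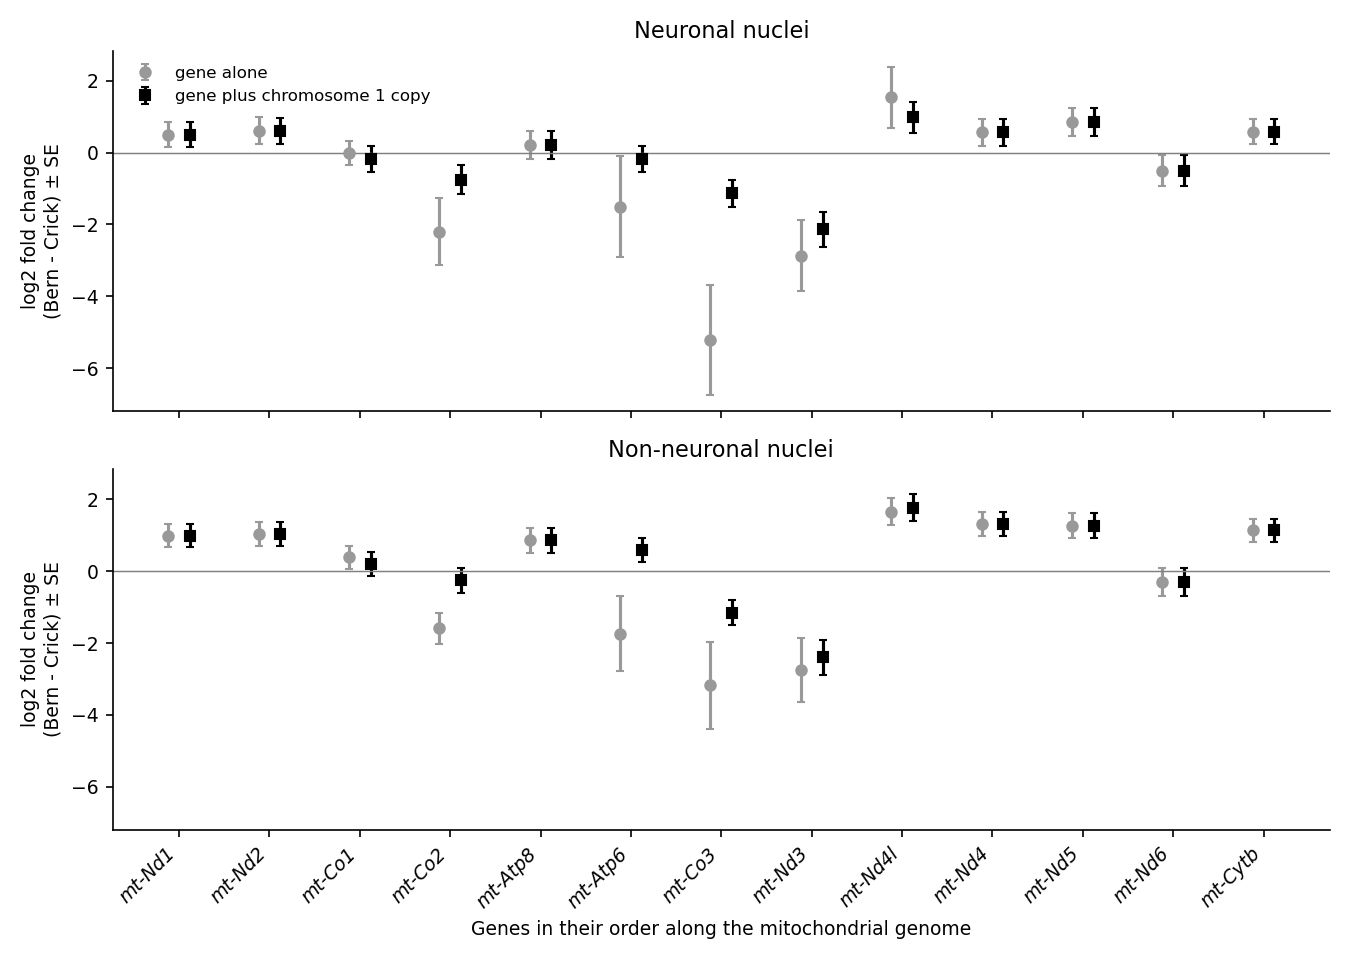
Log2 fold change between Bern and Crick for each mitochondrial gene in genome order, for the gene alone (grey circles) and summed with its chromosome 1 copy (black squares), in neuronal (top) and non-neuronal nuclei (bottom); bars are standard errors. Summing moves mt-Co3 from -5.21 to -1.13 in neuronal nuclei and mt-Co2 from -1.59 to -0.25 in non-neuronal nuclei, while mt-Nd3 stays at -2.13 and -2.39.

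The make-up of the mitochondrial RNA differed between the facilities in every group. The 13 protein-coding genes held 16.8% to 26.6% (median 22.0%) of the counts of the mitochondrial chromosome in the 16 Bern libraries and 6.82% to 12.3% (median 9.44%) in the 16 Crick libraries, with no overlap. Most other counts of this chromosome fell on mt-Rnr1 and mt-Rnr2. With the copies counted in, the ranges were 18.3% to 29.1% and 7.58% to 13.5%. The ribosomal RNA mt-Rnr2 was lower in Bern, by 1.71 ± 0.34 in neuronal (adjusted p = 0.00312) and 0.90 ± 0.28 in non-neuronal nuclei (adjusted p = 0.0467), while mt-Rnr1 stood at -0.17 ± 0.36 (adjusted p = 0.823) and 0.66 ± 0.36 (adjusted p = 0.269). No coding gene without a full copy was called lower. Of 10 neuron markers 5 were higher and of 6 epithelial markers 3 were lower in Bern neuronal nuclei, and their part in the result was not tested. The number of genes with a count and the totals also differ between facilities, as given above. The facility and whatever else was done apart for its libraries cannot be told apart.

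Of the nuclear genes, 3 of 74 rose in Bern neuronal nuclei (4.96% of all tested genes rose): Cox6a1 by 1.88 ± 0.51 (adjusted p = 0.0249), Atp5g2 by 1.77 ± 0.50 (adjusted p = 0.0303) and Atp5d, the delta subunit of the rotor stalk, by 1.00 ± 0.29 (adjusted p = 0.0383). In non-neuronal nuclei 3 of 77 rose in Bern (4.35% of all tested genes rose), Cox6a1 by 1.71 ± 0.48 (adjusted p = 0.0281), Atp5j by 1.89 ± 0.57 (adjusted p = 0.0377) and Atp5k by 1.92 ± 0.58 (adjusted p = 0.0389). Cox6a1, the liver-type isoform of a complex IV subunit, was the 1 nuclear member that passed in both sorts. Its neuronal values were 33, 20.8, 23.8 and 1.11 CPM in Bern colon and 4.84, 7.01, 8.18 and 4.54 CPM in Crick colon, and 8.29, 17, 37.6 and 57.8 CPM in Bern SI and 7.47, 4.15, 8.78 and 10.3 CPM in Crick SI. The facilities overlapped in each segment, and Bern values spread more widely than Crick values. In repeats that each left out 1 library, Cox6a1 lost its call in 4, Atp5g2 in 6 and Atp5d in 9 of 16 in neuronal nuclei, and Cox6a1 in 7, Atp5j in 9 and Atp5k in 9 of 16 in non-neuronal nuclei. For Atp5j in non-neuronal nuclei, 2 libraries stood out, Bern_ColNeg 1 (167 CPM) and Bern_SiNeg 2 (359 CPM), and the difference was 1.26 (adjusted p = 0.125) without the first and 0.80 (adjusted p = 0.232) without the second.

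In non-neuronal nuclei 1 of 77 fell in Bern (4.94% of all tested genes fell), Ndufa1, a small X-linked subunit of complex I. It had 0.39, 0, 1.04 and 3.53 CPM in Bern colon and 0 in all 4 libraries of Bern SI, which allows up to 0.21 CPM (3 counts over the group, counting error only). In Crick it had 4.18, 2.42, 4.23 and 5.75 CPM in colon and 1.84, 1.19, 2.41 and 2.51 CPM in SI. The fitted difference passed the test (adjusted p = 0.0178), but its size depends on a prior count because of the group at 0. In neuronal nuclei, where it was not tested, Ndufa1 had a count in 1 of 8 Bern libraries and in all 8 Crick libraries.

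**Figure D5:**
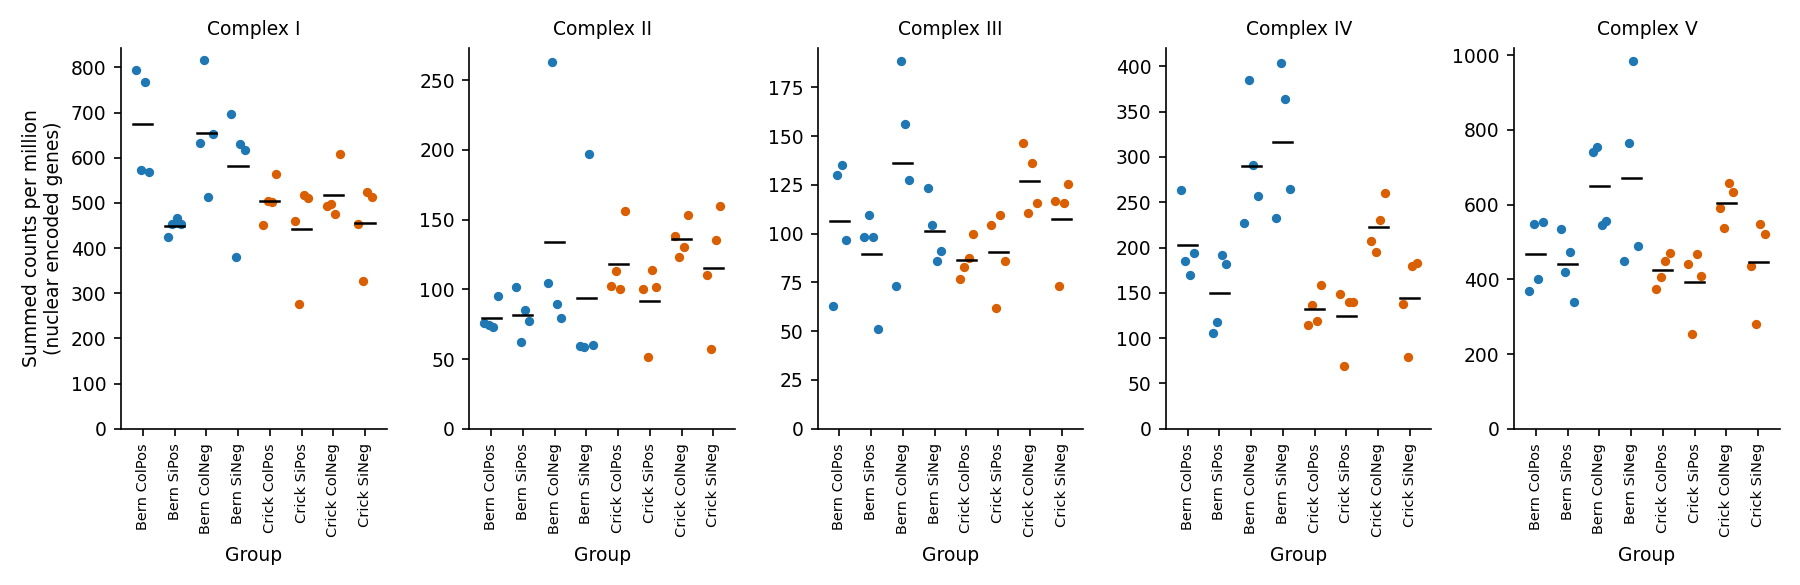
Summed CPM of the nuclear encoded genes of complexes I to V in each library, by group; points are libraries, lines are group means, blue is Bern and orange is Crick, and each panel has its own scale from 0. Complex IV means are 149.5 in Bern_SiPos and 316 in Bern_SiNeg, while complex I means lie between 441 and 676.

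By complex, the nuclear subunits gave group means of 441 to 676 CPM for complex I. Complex IV subunits summed to 149.5 ± 43.7 CPM (SD, n = 4) in Bern_SiPos and 316 ± 81 in Bern_SiNeg, without overlap (106 to 192 and 232 to 404). In Crick colon they summed to 132 ± 19.9 in ColPos and 223 ± 28.4 in ColNeg, likewise without overlap, but in Crick SI the sorts overlapped. They also overlapped in Bern colon, at 169.7 to 263.1 CPM in ColPos and 227.5 to 385.2 in ColNeg. In complex II, 1 library of Bern_ColNeg and 1 of Bern_SiNeg stood apart in Sdha: Bern_ColNeg had 59.7, 207, 66.8 and 51.6 CPM and Bern_SiNeg 45.3, 53.8, 129 and 40.6 CPM, whereas Bern_ColPos had 61.5, 55.8, 57.7 and 56.5 CPM.

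Isoforms of complex IV that are known from muscle, lung or testis had few counts. Cox4i2, Cox6a2, Cox7a1, Cox7b2, Cox8b and Cox8c had means over all 32 libraries of 0.293, 0.0349, 0.351, 0.0727, 0.541 and 0.0903 CPM, and none of these 6 was tested. Cox6a2 and Cox7a1, the heart and skeletal muscle isoforms, had their highest values at 0.279 and 3.95 CPM, in Crick_SiNeg 4 and Crick_ColNeg 4. Their widely expressed counterparts stood at 22.4 (Cox4i1), 23.3 (Cox6a1), 7.07 (Cox7a2), 13.7 (Cox7b) and 11.3 CPM (Cox8a). For the pair Cox6b1 and Cox6b2 the means were closer, 5.08 and 3.72 CPM. Cox6b2 fell in neuronal nuclei, as given above, and Cox6b1 stood at -0.33 ± 0.47 (adjusted p = 0.622). In the Crick libraries alone with the numbers as a block the values were -1.90 (Cox6b2, adjusted p = 0.016) and -1.11 (Cox6b1, adjusted p = 0.00659). The difference between their responses was not tested.

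Of 29 genes that serve mitochondrial gene expression, 3 fell between sorts and 0 rose (21.6% of all tested genes fell and 21.9% rose), with a median of -0.0018: Mterf4, a factor for mitochondrial ribosome assembly, by 0.98 ± 0.23 (adjusted p = 5.15e-04), Polg2, the accessory subunit of the mitochondrial DNA polymerase, by 1.05 ± 0.25 (adjusted p = 6.25e-04), and Hsd17b10, part of the mitochondrial RNase P, by 1.74 ± 0.58 (adjusted p = 0.0137). Between segments 0 of 29 passed in neuronal nuclei (5.51% of all tested genes), and Mterf1a alone rose in non-neuronal colon (5.79%). Between facilities Polrmt, the mitochondrial RNA polymerase, was the 1 that was higher in Bern neuronal nuclei (4.96% of all tested genes were higher; 1.31 ± 0.38, adjusted p = 0.0377), and Mterf4 (1.67 ± 0.31, adjusted p = 0.00196) and Polg2 (1.52 ± 0.34, adjusted p = 0.00731) in Bern non-neuronal nuclei (4.35%). In the segment by sort test 0 of 29 passed (6.48% of all tested genes).

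Among 12 regulators of mitochondrial biogenesis, 11 were tested in the neuronal segment comparison and 1 fell (3.54% of all tested genes fell). Ppargc1a encodes PGC-1alpha, a coactivator that raises expression of respiratory genes in many tissues. It had 31.5 to 95 CPM in Bern_ColPos and 63.5 to 456 in Bern_SiPos, which overlap, and 19.7 to 26 in Crick_ColPos and 109 to 194 in Crick_SiPos, which do not. It fell by 2.41 ± 0.37 in neuronal colon (adjusted p = 2.07e-04) and by 2.25 ± 0.53 more than in non-neuronal nuclei (adjusted p = 0.00788), the 1 of 12 that passed that test (5.39% of all tested genes were lower). Between sorts Ppargc1a (-0.79 ± 0.26), Ppargc1b (-0.88 ± 0.35), Gabpa (-0.72 ± 0.21) and Esrra (-1.65 ± 0.52) were lower in neuronal nuclei, 4 of 12 (21.6% of all tested genes). Esrrb alone fell between segments in non-neuronal nuclei (3.54%), and Gabpa alone between facilities in neuronal nuclei (-1.22 ± 0.27; 2.76%), with 0 of 12 in non-neuronal nuclei (9.29% in either direction).

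Of 48 assembly factors and electron carriers, 2 rose between sorts (21.9% of all tested genes rose), Ndufaf8 and Cox18, and 4 fell (21.6%), Cycs, the gene of cytochrome c (-1.17 ± 0.48, adjusted p = 0.0452), Ndufab1 (-0.60 ± 0.23, adjusted p = 0.0282), Surf1 and Cox20, with a median of 0.00321. Of 45 tested in neuronal nuclei 0 passed in either the segment or the facility comparison (5.51% and 7.72% of all tested genes). In non-neuronal nuclei 1 of 46 rose between segments (5.79% of all tested genes), and 1 rose (Surf1, beside 4.35%) and 1 fell (Nubpl, beside 4.94%) between facilities. The segment by sort test called 0 of 48 (6.48%).

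Lists of cytosolic ribosomal protein genes and of nuclear-retained RNAs gave the following counts. Whether these lists tell nuclear from cytoplasmic material in these libraries was not tested. Of 77 cytosolic ribosomal protein genes, 27 fell and 0 rose between sorts (21.6% and 21.9% of all tested genes), with a median of -0.63. In neuronal nuclei 0 of 76 passed between segments (5.51%) and 2 rose between facilities (4.96%), in non-neuronal nuclei 1 of 77 fell between facilities (4.94%), and 2 of 77 fell in the segment by sort test (5.39%). Of 8 nuclear-retained RNAs, 4 were higher and 2 lower between sorts (21.9% and 21.6%). Between segments 1 was higher and 1 lower in neuronal nuclei (1.97% and 3.54%), and 3 were higher and 2 lower in non-neuronal nuclei (5.79% and 3.54%). Between facilities 2 were higher and 1 lower in neuronal nuclei (4.96% and 2.76%) and 4 were higher in non-neuronal nuclei (4.35%), and 3 were lower in the segment by sort test (5.39%). Malat1, a long RNA retained in the nucleus, stood at 0.04 ± 0.09 between sorts (adjusted p = 0.756).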

How the data were processed

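The deposited table holds RSEM expected counts per gene for 32 libraries (RNA of sorted nuclei), which the authors made with STAR 2.5.2 and RSEM 1.3.0 on GRCm38, per the submitters' processing notes, which also name DESeq2 1.10.1. Strand use is not given in the sources used here. Reads that match several genes are divided by estimation in expected counts, which bears on genes with near-identical copies. The 8 groups of 4 libraries came from the labels.

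Counts were rounded (10.76% of values were not whole) and fitted with edgeR 4.0.16 in R 4.3.3: low counts removed by filterByExpr, TMM scaling, group means, quasi-likelihood tests and Benjamini-Hochberg adjustment over all tested genes (21521 for sort and segment by sort, 17419 in neuronal and 19164 in non-neuronal nuclei), with a threshold of 0.05. Log2 differences are neuronal minus non-neuronal, colon minus SI and Bern minus Crick, averaged over the other factors, each with its standard error. CPM scale each library's counts to a total of 1e6. Totals were 2394481 to 8350833. Of 51912 identifiers 51633 matched GENCODE M21, whose transcripts were searched for shared 75-base windows and with blastn 2.17.0+. Scripts were tested on simulated data.

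Alternatives were DESeq2 1.42.0, RLE size factors, library sizes without mitochondrial genes, no filter, 1 fit of all libraries, a replicate block and leaving out each library. The share of all genes called in each of these alternatives is not given, so their counts of members cannot be set against other genes. Added after seeing the data were sums with the chromosome 1 copies, contrasts within a facility or segment, fits of sort in the 16 libraries of 1 facility alone (for Crick also with a replicate block by number and segment, since all 8 of its sort pairs correlated over 0.1, against 0 of 8 in Bern), and fits without Crick_SiNeg 2 and Crick_SiPos 2 or without 6 libraries in doubt (these 2, Bern_ColNeg 1 and 2, Crick_ColNeg 3 and Bern_SiNeg 1). The members and lists were chosen with earlier results of these data known. Named genes were all mitochondrial members and, of the nuclear ones, the most abundant per complex, up to 3 called genes with the largest fold per direction and comparison, fixed core subunits and isoform pairs; other nuclear genes were named after their values were seen.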

Additional observations from a re-analysis of the deposited data

Results flagged for a closer look

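In 176 sets of 4 libraries (a gene or sum in a group), 26 had 1 library far from the other 3 by Dixon's test. For independent, normally distributed values chance alone gives about 1 in 20. The count cannot be set against this rate, because many flags come from the same library. In some sets, such as mt-Co2 in Bern_ColPos, the other 3 libraries were also all at 0 CPM. Library Crick_SiPos 2 had the lowest nuclear sum of its group, 713 CPM, and a ratio of the mitochondrial to the nuclear sum of 22.45. It was also the highest of its group for mt-Nd2 (464.9 CPM), mt-Atp8 (130.6), mt-Co3 (608.6), mt-Nd3 (92.77), mt-Nd4 (2169), mt-Nd6 (217.1), mt-Cytb (2708) and mt-Nd4l (151.8). Library Crick_SiNeg 2 stood apart in the same ratio (32.09), in mt-Nd1 (2182 CPM) and in mt-Co3 (1449 CPM).

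Genes with a full chromosome 1 copy gave most of the remaining cases. For mt-Atp6 the high libraries were Bern_ColPos 3 (37.94 CPM), Bern_SiPos 2 (82.5), Crick_ColNeg 1 (471.7) and Crick_ColPos 3 (47.78). For mt-Co3 they were Bern_ColNeg 1 (101.1 CPM), Bern_SiNeg 4 (334.5) and Crick_ColPos 1 (49.47). For mt-Co2 it was Bern_ColPos 1 (20.65 CPM). In mt-Nd4l, Bern_ColNeg 1 was low (81.96 CPM) and Crick_ColPos 4 was apart at 9.226 CPM. Outside these genes, mt-Atp8 in Crick_ColPos 4 (14.21 CPM) and Sdha in Bern_ColNeg 2 (206.6 CPM) and Bern_SiNeg 3 (128.9 CPM) stood apart.

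The segment contrast differed between neuronal and non-neuronal nuclei in 5 genes by edgeR's test of the difference itself. It was lower in neuronal nuclei for mt-Nd1 (-1.885 on the log2 scale), mt-Cytb (-1.787), mt-Nd4 (-1.755) and mt-Co1 (-1.632), and higher for Ndufs3 (1.931). The report gives the libraries on which these values rest.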

How the results depend on the processing

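No difference that passed its test changed sign under any alternative run, whereas values that did not pass could do so, such as that of mt-Atp6 given above. Replicate numbers in the labels are shared between groups. Libraries of 1 number and segment correlated over 0.1 between the 2 sorts in all 8 pairs of Crick (0.101 to 0.696, 6 best with their own number) and in 0 of 8 of Bern (-0.008 to 0.078, 5 best), so a block by number and segment was fitted for sort in the Crick libraries alone, chosen after seeing the data. It called 35 nuclear genes, against 27 without the block and 4 in the Bern libraries alone. With it Atp5d, which did not pass over both facilities, fell by 0.57 (adjusted p = 0.0125), opposite in sign. Same-numbered libraries of the 2 segments correlated from -0.49 to 0.49 (3 of 16 over 0.1, 5 best with their own). Whether they share more than a number cannot be told from this, and the labels do not say. The planned replicate block, 1 number per facility over sorts and segments, gave 13 mitochondrial and 10 nuclear genes for sort, losing Cox6a1 (-0.83, adjusted p = 0.0736) and Atp5g2 (-0.88, adjusted p = 0.125), 10 and 0 between segments in neuronal nuclei, 6 mitochondrial genes in non-neuronal nuclei and 0 nuclear genes in the segment by sort test. The cause of these and the following changes was not tested.

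Counts of nuclear genes called between sorts were 28 with DESeq2, 21 with RLE size factors, 18 with library sizes without mitochondrial genes, 7 within Bern and 0 within Crick. Here and below, shares of all genes are given only for contrasts within a facility or segment, as stated above. The other counts cannot be set against other genes. For the segment comparison in neuronal nuclei DESeq2 called 3 nuclear genes, and 2 were called within Bern. In non-neuronal nuclei DESeq2 called 4, 1 fit of all 32 libraries 1, and the contrast within Bern 2, while mitochondrial calls were 0 within Crick and 1 without the 6 libraries in doubt. For facility in neuronal nuclei, mitochondrial calls were 0 with DESeq2, with all 32 libraries in 1 fit, within colon and within SI, 8 with no filter on low counts, and 5 without Crick_SiPos 2 and without the libraries in doubt; nuclear calls were 7 with DESeq2, 1 within colon and 0 within SI. For facility in non-neuronal nuclei, 12 mitochondrial genes were called with no filter and 0 within colon, and nuclear calls were 1 without Crick_SiNeg 2, 1 without the libraries in doubt, 0 within colon and 2 within SI. In the segment by sort test, 11 mitochondrial genes were called with no filter, 7 without Crick_SiNeg 2 and Crick_SiPos 2, 7 without the libraries in doubt, and 0 within Bern and within Crick; nuclear calls were 0 with no filter, 0 without those 2 libraries, 2 within Bern and 0 within Crick.

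Leaving out 1 library at a time gave 11 to 13 mitochondrial and 9 to 21 nuclear calls for sort (21 without Bern_SiNeg 2, 17 without Bern_SiNeg 4), 10 to 12 and 0 to 2 between segments in neuronal nuclei (2 without Bern_ColPos 3) and 8 to 11 and 0 to 1 in non-neuronal nuclei (1 without Bern_ColNeg 2). It gave 0 to 5 and 0 to 4 for facility in neuronal nuclei (5 mitochondrial without Crick_SiPos 2), 4 to 8 and 1 to 7 in non-neuronal nuclei (7 nuclear without Bern_SiNeg 1), and 0 to 10 and 0 to 1 for segment by sort (0 mitochondrial without Crick_SiPos 2, 10 without Crick_SiNeg 2).

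Taking all genes of the mitochondrial chromosome in place of the 13 raised their mean share of counts to 5.246% in Bern_ColNeg, 0.5107% in Bern_ColPos, 11.82% in Bern_SiNeg, 4.072% in Bern_SiPos, 7.434% in Crick_ColNeg, 1.085% in Crick_ColPos, 11.65% in Crick_SiNeg and 7.628% in Crick_SiPos. Nuclear members with a mean of at least 10 CPM summed to 1352 CPM in Bern_ColPos, 1042 in Bern_SiPos, 1368 in Crick_ColNeg and 1121 in Crick_ColPos, and with CPM taken over counts outside the mitochondrial chromosome Crick_ColNeg had 1740. Depth limits genes of a few CPM most, such as Ndufa1 and the rare isoforms of complex IV.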
